A study of Canis lupus familiaris with 48 samples.

Results

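Gene expression of MDCK I cells kept in urea-enriched medium was compared with that of the same cells in regular medium. MDCK I is an established line of dog kidney epithelial cells that forms a tight monolayer. The comparison holds 24 of the 48 RNA sequencing libraries of the series, chosen by their titles: 12 urea and 12 control libraries, 1 of each at 12 passages between 1 and 19. Control cells spent 144 h in regular medium (300 mOsm). Urea cells spent the last 24 h of the 144 h in medium with 200 mOsm of added urea (500 mOsm in all); the other 24 libraries had 200 mOsm of NaCl or raffinose in its place and serve here only for direct tests against urea. All replicates are passages of 1 line, so p-values measure the spread between passages, and the labels do not say whether libraries of the same passage came from the same culture.

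Urea is a small uncharged solute that the kidney concentrates in its inner medulla, and it enters cells through lipid membranes and dedicated transporters. It therefore raises osmolality with little lasting loss of cell water, whereas salts and sugars that stay outside draw water out of the cell. At high concentration urea also weakens the folding of proteins. Genes in the count table carry Ensembl identifiers of the dog genome build CanFam3.1, and 0 of these identifiers were paired with a symbol in the gene table used here. The genes below are therefore given by identifier or position, what each encodes is not stated, and the kidney epithelial markers of the labelled line were not checked.

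Libraries held between 6.08 M and 16.06 M counted reads in control, with a median of 10.24 M, and between 3.92 M and 15 M after urea, with a median of 10.3 M. Of 32704 annotated genes, 12654 had enough reads to be tested. Levels are given in CPM, the reads of a gene scaled to a common library size with TMM-adjusted totals; they are not corrected for gene length, so only levels of the same gene are compared.

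Urea raised 3463 genes (27.4% of those tested) and lowered 3157 (24.9%), 6620 in all (52.3%; edgeR quasi-likelihood test, adjusted p under 0.05). Most of these changes were small. The median change of a called gene was 0.409 log2 units upward and 0.51 downward. At least 2-fold changes were fewer and lay mostly on the downward side, with 345 genes higher (2.73%) and 606 lower (4.79%), 951 in all (7.52%). The larger the change, the more the downward side outnumbered the other: 34 genes rose and 121 fell at least 4-fold, and 6 rose and 23 fell at least 8-fold. The excess of 2-fold falls lay in genes under 100 CPM (mean of the 24 libraries). At 100 CPM or more, 45 genes rose and 27 fell at least 2-fold. Between 20 and 100 CPM these counts were 70 and 94, and between 5 and 20 CPM 76 and 162. They were 107 and 226 between 1 and 5 CPM, and 47 and 97 under 1 CPM. Across all tested genes, the quartiles of the log2 fold change were -0.26 and 0.25. TMM scaling put 52.3% of all calls on the upward side; scaling by read totals alone put 40.1% there and moved the median of all genes from 0.02 to -0.05. In bulk RNA, fewer cells of a kind and less RNA per cell cannot be told apart.

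**Figure D1:**
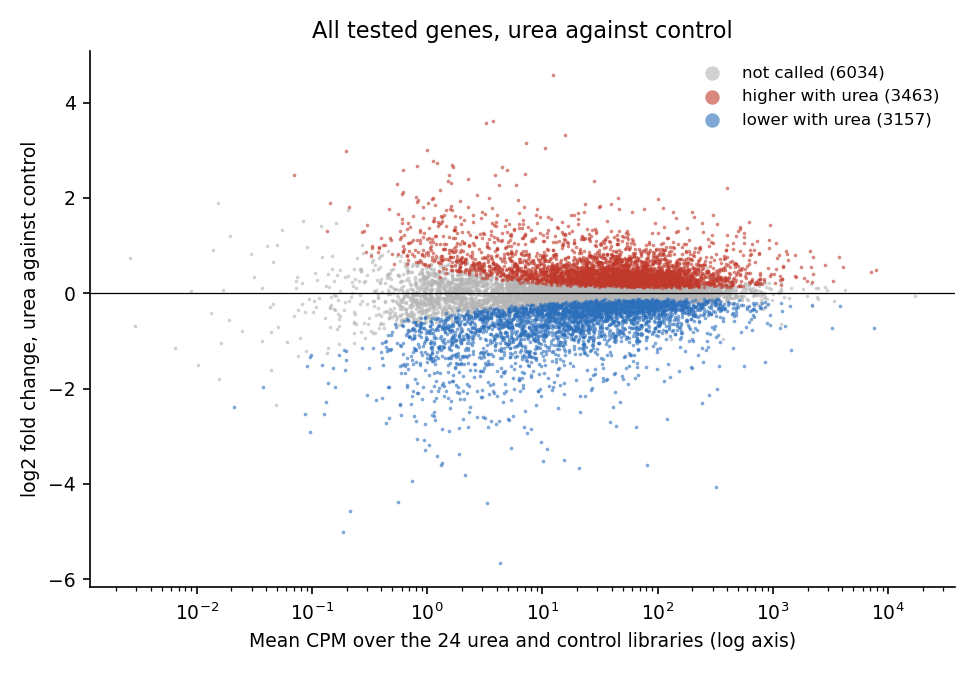
Each point is a tested gene, with its mean CPM over the 24 libraries on a log axis and its log2 fold change, urea against control, on the vertical axis. Red points are the 3463 genes called higher, blue the 3157 called lower, and the lower side reaches further from 0.

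The direction of change differed with the number of reads a gene had. Among the 2302 genes at 100 CPM or more, 859 rose (37.3%) and 443 fell (19.2%). Among the 4978 genes between 20 and 100 CPM, 1571 rose and 1145 fell. The order turned below that. Between 5 and 20 CPM 618 rose and 844 fell, between 1 and 5 CPM 333 rose and 573 fell, and of the 687 genes under 1 CPM 82 rose (11.9%) and 152 fell (22.1%). The filter on reads used all 4 groups, so a low gene here may have been tested through the NaCl or raffinose libraries, or through 1 of the 2 groups compared. With only the urea and control groups, 324 genes under 5 CPM rose and 580 fell. With library totals only, the counts at 100 CPM or more were 642 higher and 585 lower, so the excess there was smaller but kept its direction. Under 5 CPM, 415 rose and 725 fell under TMM, and 346 and 809 with library totals only. Over all tested genes, library totals gave 2593 higher and 3869 lower. Genes between 5 and 100 CPM together thus fell more often than they rose under that scaling, and rose more often under TMM. The turn at 20 CPM was not counted with library totals.

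ENSCAFG00000015180 (chromosome 7, 28956363 to 28997731, plus strand, 18 exons) had the highest fold change among genes that met the naming rule. Its level in control was 0.153 CPM at the lowest, 0.61 at the median and 3.76 at the highest, and after urea 7.83, 17.4 and 77.7 CPM. Every urea library lay above every control library, and the passage 17 library was the highest of its group in all 4 groups of the series. Its log2 fold change was 4.57 ± 0.43 (SE; edgeR adjusted p = 8.03e-13), and 4.76 without passage 17. Against NaCl and raffinose it was not called (-0.64 and -0.34, edgeR adjusted p = 0.0632 and 0.327), but with passage as a block it was lower after urea than after either (-0.71 and -0.33, edgeR adjusted p = 5.01e-06 and 0.0226). Without passage 17 the difference from NaCl was also called (-0.72, edgeR adjusted p = 0.00192). A tested neighbour 25.2 kb away, at 28906579 to 28931118, rose from 0.54 to 6.91 CPM (log2 fold change 3.62 ± 0.27, edgeR adjusted p = 2.51e-16), and the gene on its other side, at 28999512 to 29069232, rose from 0.364 to 1 CPM (1.48 ± 0.39).

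ENSCAFG00000003461 (chromosome 10, 69288237 to 69293771, plus strand, 8 exons) came next. Its control libraries ran from 0.627 CPM (passage 17) over a median of 2.19 to 7.47 CPM (passage 1), and its urea libraries from 14.9 over 23.7 to 61.4 CPM, again with passage 1 highest. The groups did not overlap, and the log2 fold change was 3.32 ± 0.26 (edgeR adjusted p = 1.98e-15). Its nearest tested neighbours moved by less: the gene 0.472 kb upstream, at 69265895 to 69287765, rose by 0.43 ± 0.12 log2 units and the one 3.2 kb downstream by 0.48 ± 0.08.

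ENSCAFG00000006902 (chromosome 1, 116938234 to 116947100, minus strand, 7 exons) showed the largest fall under that rule. Control libraries held 342, 668 and 796 CPM (lowest, median and highest), and urea libraries 16.6, 34.6 and 67.8 CPM. The lowest control library was thus above the highest urea library, and passage 17 was the lowest in both groups. The log2 fold change was -4.06 ± 0.21 (edgeR adjusted p = 4.8e-22). After urea the gene was also lower than after NaCl (-1.30 ± 0.19, edgeR adjusted p = 3.98e-08) and raffinose (-1.19 ± 0.19, edgeR adjusted p = 2.53e-07). The gene lies within the span of another, at 116891476 to 116985764 on the same strand, with which it shares 0 exon bases; that gene had 217 CPM in control and 196 after urea and was not called (-0.15 ± 0.07, edgeR adjusted p = 0.0934), while with passage as a block it was (-0.14, edgeR adjusted p = 0.0166).

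ENSCAFG00000005437 (chromosome 21, 23345710 to 23393624, minus strand, 14 exons) went from 20.9, 39.9 and 48.2 CPM in control to 0.418, 2.6 and 6.85 CPM after urea. Its groups did not overlap either, with a log2 fold change of -3.67 ± 0.24 (edgeR adjusted p = 1.42e-18). A tested neighbour 120 kb away, at 23513349 to 23570309, fell by much less (-0.64 ± 0.17). The other solutes had lower levels still, with medians of 0.637 CPM (NaCl) and 0.374 CPM (raffinose); urea was higher by 2.17 ± 0.32 and 2.68 ± 0.36 log2 units (edgeR adjusted p = 4.62e-08 and 2.77e-09).

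**Figure D2:**
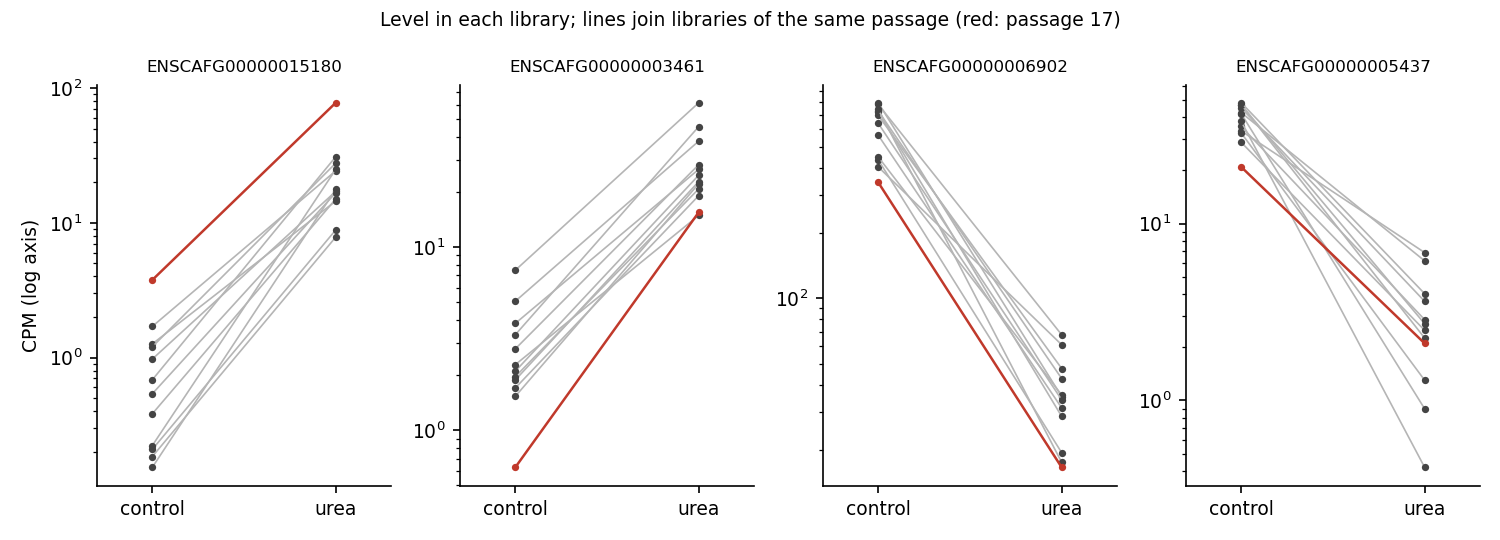
CPM of 4 genes in each control and urea library, on log axes, with lines that join libraries of the same passage and passage 17 in red. All 12 lines rise in the left pair of panels and fall in the right pair, as the naming rule required, and in none of the 4 genes do the groups overlap.

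Among genes with at least 100 CPM in control, the same rule gave these further genes. The gene at chromosome 28, 21829653 to 21845650 (plus strand, 4 exons), had 94.7, 143 and 192 CPM in control (lowest, median and highest) and 561, 649 and 844 CPM after urea. The groups stood far apart and the urea libraries were close to each other. Its log2 fold change was 2.22 ± 0.27 (edgeR adjusted p = 1.31e-09). It was also higher after urea than after NaCl (1.96 ± 0.27, edgeR adjusted p = 8.29e-09) and raffinose (1.35 ± 0.27, edgeR adjusted p = 1.09e-05), where its libraries spread from 47.8 to 418 and from 67.1 to 607 CPM.

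The gene at chromosome 6, 8719546 to 8727277 (minus strand, 9 exons), varied strongly with passage. It ran from 38.5 to 449 CPM in control (median 130) and from 121 to 1090 CPM after urea (median 398), with passage 17 lowest and passage 1 highest in both groups. The groups overlapped, and the log2 fold change was 1.63 ± 0.33 (edgeR adjusted p = 3.37e-05); that all 12 pairs moved upward was a condition of the naming rule. A neighbour 15.7 kb away, at 8702021 to 8703874, rose from 2.3 to 18.8 CPM (3.04 ± 0.23, edgeR adjusted p = 3.7e-16), while the gene between them, at 8705969 to 8712379, had 78.2 CPM in control and 83.6 after urea and was not called.

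Of the abundant genes that fell, ENSCAFG00000006902 above was first. The gene at chromosome 24, 21094771 to 21096390 (plus strand, 3 exons), was next, at 47.3, 143 and 235 CPM in control and 7.99, 12.6 and 15.1 CPM after urea. Control libraries spread widely and urea libraries little, with no overlap (-3.59 ± 0.22, edgeR adjusted p = 5.45e-19). Of its 6 nearest tested neighbours 3 rose, where 27.4% of all tested genes did, at 21026827 to 21067920, 21123324 to 21141171 and 21145209 to 21196349, by 0.44, 1.12 and 0.95 log2 units.

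Few genes moved between near silence and clear expression. With at most 3 reads over all libraries of one group and at least 1 CPM in the other, 0 genes were found in either direction. From under 0.5 CPM to at least 5 CPM, 1 gene rose and 2 fell; these 3 are described because their values stood out. The gene at chromosome 34, 21766678 to 21985146 (15 exons), had 2.92, 8.47 and 14.8 CPM in control and 0, 0.192 and 0.433 CPM after urea, with 20 reads over all 12 urea libraries against 1234 in control. Its log2 fold change of -5.66 ± 0.34 was the lowest of all tested genes. The gene at chromosome 12, 15012562 to 15085972 (25 exons), went from 4.2, 6.02 and 10.4 to 0, 0.229 and 0.753 CPM (-4.41 ± 0.33). After urea it was lower than after NaCl (-1.64) and raffinose (-1.57), which was not called for the gene on chromosome 34 (0.27 and 0.92). The gene at chromosome 1, 111635008 to 111641310 (4 exons), went from 0.0599, 0.439 and 1.08 to 1.88, 5.41 and 12.8 CPM (3.57 ± 0.31). None of the 3 had overlapping groups.

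The change was shared by the passages. Of the tested genes, 1927 were higher after urea in all 12 same-passage pairs (15.2%) and 1773 were lower in all 12 (14%); with library totals only these numbers were 1415 and 2295. Of the 6620 called genes, 3649 moved the same way in all 12 pairs and 6157 in at least 10. Over all tested genes, 876, 917 and 1927 were higher in 10, 11 and 12 pairs, and 765, 899 and 1781 in 2, 1 and 0. The calls came from these same libraries, so the agreement of called genes over pairs is in part set by the call. In 591 genes all urea libraries lay above all control libraries (4.67%) and in 554 below them (4.38%). Of the 951 called genes with at least a 2-fold change, 462 had groups that did not overlap.

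**Figure D3:**
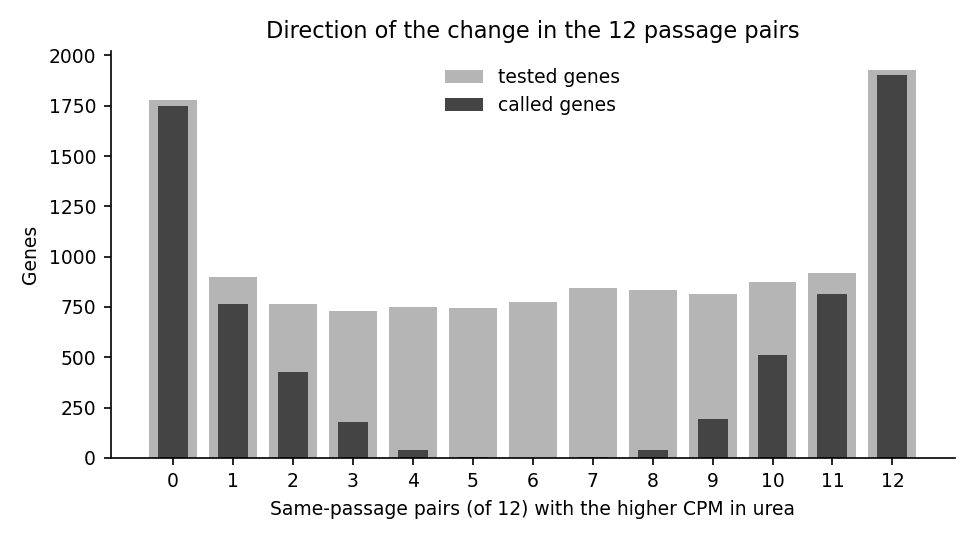
Number of genes by how many of the 12 same-passage pairs had the higher CPM in urea; grey bars are all tested genes and dark bars the genes called by edgeR. The tallest bars stand at both ends, with 1927 genes higher in 12 pairs and 1781 higher in 0 pairs, of which 1773 were lower in all 12.

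Each pair was also described on its own, over 10098 genes with a mean of at least 5 CPM. The SD of the log2 ratios over genes ran from 0.491 to 0.665 with a median of 0.528. Between 181 and 359 genes were at least 2-fold higher in a pair and between 275 and 617 at least 2-fold lower. When the log2 ratios of a pair were set against the mean of the other 11 pairs, slopes ran from 0.85 to 1.21 and correlations across genes from 0.78 to 0.90; genes are not independent replicates. The pair of passage 19 had the highest SD, the most 2-fold changes in both directions and the steepest slope, and the pair of passage 1 the lowest slope and correlation.

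No gene was called for a change of the urea effect along passage number. The term for urea by passage called 0 of 12654 genes in edgeR (0%), with 345 at an unadjusted p under 0.05 (2.73%) and a smallest adjusted p of 0.488. With passage also taken as a block, over the urea and control libraries only, edgeR called 0 of 12005 genes. The smallest adjusted p from edgeR was 0.275 there, and 1051 genes had an unadjusted p under 0.05. That was 8.75% of genes, more than the 2.73% above and the 3.56% of these same libraries without the block. ENSCAFG00000006902, for instance, had a slope of -0.80 ± 0.30 log2 units per 10 passages (unadjusted p = 0.012 from edgeR), which did not pass adjustment.

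Called genes lay on every chromosome, in shares that were not tested against each other. Over the autosomes and X, 39 chromosomes in all, the share of tested genes called ran from 43.1% (X) to 58.4% (chromosome 28), with a median of 52.4%. The share that rose was highest on chromosome 28 at 35.5% (82 of 231 genes) and lowest on chromosome 19 at 19.2% (23 of 120). The share that fell was highest on chromosome 18 at 30.5% (131 of 429) and lowest on chromosome 36 at 12.2% (11 of 90). Median log2 fold changes stayed between -0.03 (chromosome 24) and 0.13 (chromosome 29). On 35 of the 39 chromosomes more genes fell than rose by at least 2-fold. Of 84 genes on unplaced scaffolds, 8 were higher (9.52%) and 25 lower (29.8%). These genes also had fewer reads, with a median of 7.93 CPM. Medians of the autosomes and X ran from 14.8 (chromosome 35) to 46.1 CPM (chromosome 24). How far read number accounts for the shares on scaffolds was not tested.

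**Figure D4:**
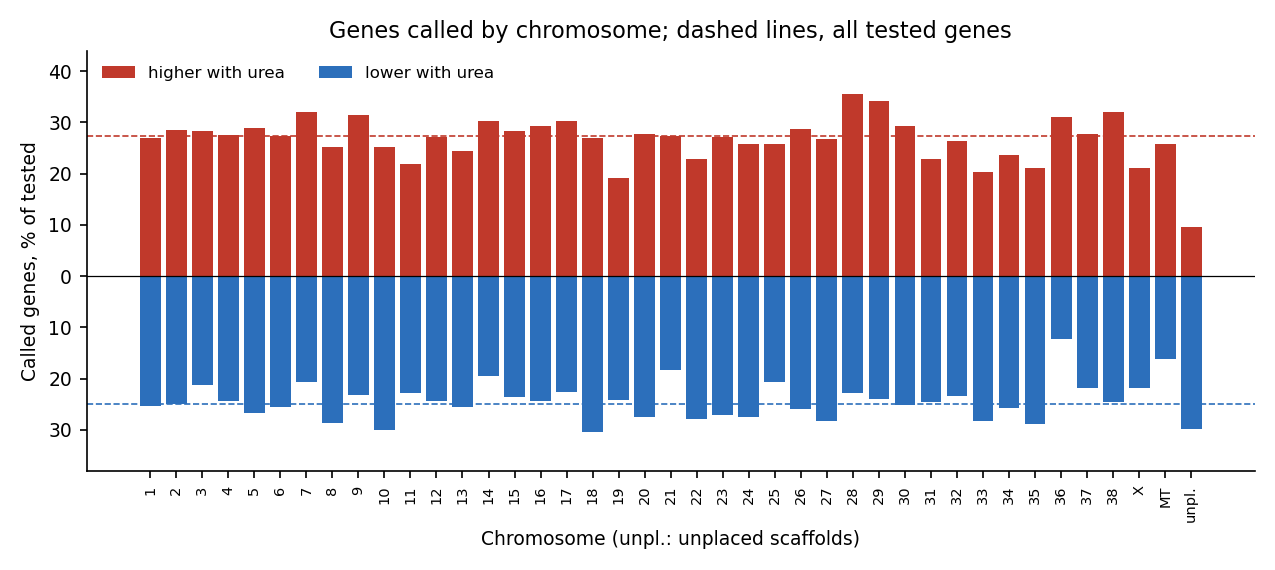
Share of tested genes called higher (red, upward) and lower (blue, downward) on each chromosome, the mitochondrial genome (MT) and unplaced scaffolds (unpl.), in percent; dashed lines show the 27.4% and 24.9% of all tested genes. Most bars end near the dashed lines, and unplaced scaffolds have the shortest upward bar, at 9.52%.

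Some neighbouring genes moved together. Median log2 fold changes over windows of 8 consecutive tested genes lay between -0.30 and 0.29 for the middle 90% of 12266 overlapping windows. The windows described next were picked as the highest and lowest medians, so their values are a description with no test. The lowest of all was on chromosome 12, 2132986 to 2520999, with a median of -1.76. Genes at its start, at 2132986 to 2136689, 2151409 to 2164562 and 2221181 to 2227600, had log2 fold changes of -2.04, -2.05 and -2.85, and genes at its end, at 2498738 to 2508275 and 2516976 to 2520999, of -2.42 and -1.47. The genes between these had values from -0.19 to 0.51. The gene at 2151409 to 2164562 went from 10.3 ± 5.55 to 2.42 ± 1.21 CPM (mean ± SD, n = 12), and the other 4 of these genes were under 3 CPM in control.

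A window on chromosome 15, 12778285 to 13694493, had a median of -1.44 and held 5 adjacent genes that all fell. From 13480574 to 13694493 these had log2 fold changes of -1.55, -3.26, -1.79, -1.33 and -2.55. Their mean levels fell from 118 to 40.3, from 19.9 to 2.01, from 52.6 to 15.1, from 4.45 to 1.81 and from 1.88 to 0.31 CPM. The first gene of the window, at 12778285 to 12982057, had the opposite direction (1.35 ± 0.16). The last of the 5 was the one gene of the window far below the other solutes, with a difference of -8.25 log2 units between urea and NaCl and of -8.08 between urea and raffinose. The genes before it among these 5 were higher after urea than after the other solutes. Their differences were 0.79, 0.74, 1.57 and 1.15 against NaCl, and 0.91, 0.69, 1.92 and 1.39 against raffinose.

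On chromosome 12, 20347712 to 21175917, the median was -1.10. Its first genes, at 20347712 to 20365071, 20404346 to 20414545 and 20426726 to 20443200, all on the minus strand, fell from 12.2 to 1.72, from 24.9 to 5.74 and from 44.1 to 13.6 CPM. The gene at 21000884 to 21048729 fell from 196 ± 40.3 to 58.6 ± 9.22 CPM (-1.75 ± 0.11). Between these, the gene at 20452262 to 20511696 rose (0.18 ± 0.07), and that at 20734329 to 20760209 was not called (0.13 ± 0.07). The window of chromosome 26, 23542659 to 23735748, had a median of -0.97 and held a gene at 23581202 to 23583492 that fell from 1.07 ± 0.511 to 0.0385 ± 0.0624 CPM (-4.38 ± 0.51). In this window the gene at 23715105 to 23720444 rose (0.57 ± 0.13), and that at 23655974 to 23672891 was not called (0.05 ± 0.08).

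Among the windows with the highest medians, that of chromosome 5, 55857791 to 56237586, came first at 0.97. Genes there at 56194596 to 56201811 and 56200435 to 56207632 rose from 13.9 to 48.6 and from 10.1 to 36.8 CPM (1.81 ± 0.10 and 1.87 ± 0.10), but their exons overlap: 45.2% of the exon bases of the former are shared with other genes, and without strand their reads cannot be fully told apart. The gene at 56230818 to 56237586, which overlaps none, rose from 13.5 ± 5.08 to 31 ± 6.75 CPM (1.19 ± 0.16). The genes at 55857791 to 55964700 and 56151140 to 56175436 fell by 0.61 and 0.60 log2 units.

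The window of chromosome 12, 3114122 to 3811775, at a median of 0.87, held a gene at 3533049 to 3538533 that went from 467 ± 84.9 to 1000 ± 253 CPM (1.10 ± 0.12). That gene was higher than after the other solutes as well, by 1.74 log2 units against NaCl and 1.94 against raffinose. In the same window the gene at 3130702 to 3131712 rose by 1.26 log2 units. It shares 70.4% of its exon bases with a neighbour, so without strand their reads cannot be fully told apart. The gene at 3567206 to 3687026 fell (-0.24 ± 0.07), and that at 3713984 to 3720149 was not called (0.02 ± 0.16). On chromosome 29, 18709344 to 20802657, at a median of 0.75, the gene at 18802897 to 18883675 rose from 50 ± 14.5 to 139 ± 44.7 CPM (1.47 ± 0.16) beside a gene at 18731128 to 18733040 that rose from 1.22 to 3.83 CPM (1.64 ± 0.20). Those starting at 18709344 and 18895864 also rose, from 0.265 and 0.922 CPM in control. Further on, the genes starting at 19253846 and 19669628 were not called (-0.24 and 0.01). The gene starting at 19722495 fell (-0.30 ± 0.10), and the last gene rose (0.54 ± 0.15). The window of chromosome 2, 6941688 to 7897377, at a median of 0.88, held 7 genes that rose, several of them at low levels. Those starting at 7111470, 7365708, 7693823 and 7814542 had 1.63, 0.451, 0.634 and 0.257 CPM in control. After urea they had 3.37, 1.39, 0.979 and 0.858 CPM. The gene of this window at 7455631 to 7677383 (33 exons) went from 18.1 ± 3.72 to 33.1 ± 6.09 CPM (0.87 ± 0.11). After urea this gene was lower than after NaCl (-0.88) and raffinose (-0.58), as were most genes of the window. The lowest differences were -2.37 and -2.82, at 7111470 to 7123210. The gene at 6941688 to 7057684 was higher than after NaCl (0.17), and that at 7151443 to 7212200 was called against neither. With library totals only, the medians of the 4 highest windows were 0.90, 0.80, 0.79 and 0.67.

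The mitochondrial genome encodes ribosomal RNAs, transfer RNAs and subunits of the respiratory chain, and is transcribed from both strands into long precursors. Of its 31 tested genes 41.9% were called, against 52.3% of all tested genes. Of 15 genes of at least 200 bases, 7 rose and 0 fell (median 0.17). Of 16 tested genes under 200 bases, out of 22 in the annotation, 1 rose and 5 fell (median -0.11); over all tested genes 27.4% rose and 24.9% fell. The longer genes that rose all lay from position 7803 on, where those at 9496 to 9842 and 13582 to 14109 were not called. The gene at 7803 to 8006 rose from 456 to 800 CPM (log2 fold change 0.81 ± 0.17, edgeR adjusted p = 5.8e-05), that at 7964 to 8644 from 6520 to 9110 CPM (0.48 ± 0.11) and that at 8644 to 9427 from 6050 to 8290 CPM (0.45 ± 0.11). Further on, the genes at 9911 to 10207, 10201 to 11578, 11778 to 13598 and 14183 to 15322 rose by 0.48, 0.27, 0.37 and 0.36 log2 units. Before that position, the gene at 5349 to 6893 had 17600 CPM in control and 17000 after urea (-0.05 ± 0.10), and none of the longer genes there was called. Genes at 7803 to 8006 and 7964 to 8644 overlap, so their reads are not fully separate.

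The lowest mitochondrial fold changes were those of 3 adjacent short genes of the minus strand. The genes at 5037 to 5105, 5107 to 5178 and 5212 to 5279 dropped to 7.11 from 15.9, to 8.97 from 18.5 and to 6 CPM from 12.3; their log2 fold changes were -1.14 ± 0.21, -1.02 ± 0.18 and -1.03 ± 0.19, and all 12 pairs fell for each. Other short genes of that strand had the opposite sign: the gene at 14108 to 14178 rose (0.38 ± 0.16), and those at 15392 to 15457 and 6891 to 6961 had 0.42 ± 0.20 and 0.20 ± 0.12 and were not called. Reads were counted without strand, so reads of precursors of the other strand at these positions cannot be told apart, and how well libraries of polyadenylated RNA measure such short genes was not tested. Tested against a minimum fold of 1.5 (glmTreat), 3 short genes were lower and 0 longer genes higher.

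**Figure D5:**
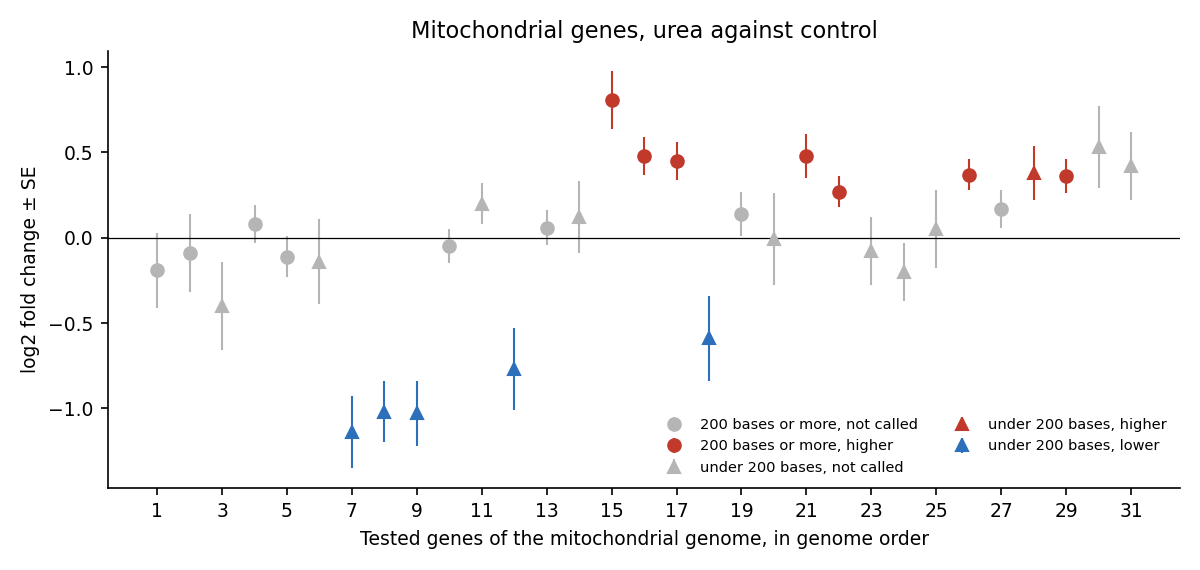
Log2 fold change ± SE, urea against control, of the 31 tested mitochondrial genes in genome order; circles are genes of at least 200 bases, triangles shorter ones, red called higher, blue called lower and grey not called. From the 15th gene on 7 of the longer genes are red, and the lowest points are 3 neighbouring short genes near -1.

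As a share of all reads, mitochondrial genes made up 3.77%, 5.01% and 6.16% in control (lowest, median and highest) and 4.1%, 5.34% and 6.94% after urea. The groups overlapped widely. The share was higher in 10 of 12 pairs, a mean difference of 0.391 percentage points that did not pass (two-sided permutation test, p = 0.15, adjusted over 2 shares 0.301; exact sign-flip test of the pairs, p = 0.0835). The 20 most abundant genes held 9.38 ± 0.54% of reads in control and 9.32 ± 0.70% after urea (n = 12; two-sided permutation test, p = 0.816). Summed over the genes whose mean share of reads was higher after urea, the gain was 10.3% of all reads. It was spread over many genes: 187 genes gave 50% of the gain and 311 genes 50% of the loss, and the top 10 gave 12.9% and 13.2%.

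Direct tests at equal osmolality showed where the urea profile stood apart from those of the solutes that stay outside the cell. Urea differed from NaCl in 9183 genes (72.6%), 4664 higher (36.9%) and 4519 lower (35.7%). It differed from raffinose in 9614 (76%), 4853 higher (38.4%) and 4761 lower (37.6%); both tests share the urea libraries. ENSCAFG00000003461 had the largest excess over both. NaCl libraries had 0.194, 0.737 and 1.39 CPM and raffinose libraries 0.192, 1.06 and 2.57 CPM (lowest, median and highest). The control median of 2.19 CPM lay between theirs and that of urea. Control libraries, from 0.627 CPM up, overlapped those of NaCl and raffinose and were not tested against them. Urea was higher by 5.24 ± 0.31 than NaCl and by 4.82 ± 0.31 than raffinose (edgeR adjusted p = 4.77e-21 and 4.37e-20).

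ENSCAFG00000032326 (chromosome 7, 43480708 to 43482461, plus strand, 2 exons) came second. Urea libraries had 89.6, 325 and 595 CPM and control libraries 62.6, 115 and 244 CPM, with passage 17 lowest in both groups; NaCl libraries reached at most 21.5 and raffinose libraries 18 CPM. The urea and control groups overlapped while all 12 pairs rose (1.47 ± 0.20, edgeR adjusted p = 2.09e-08). Its differences from NaCl and raffinose were 4.58 ± 0.24 and 4.95 ± 0.24. It lies within the span of another gene of the same strand, with 0 shared exon bases.

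At the other end, ENSCAFG00000006942 and ENSCAFG00000032573 were abundant after NaCl and raffinose and near 0 after urea. ENSCAFG00000006942 (chromosome 15, 40179872 to 40239634) had 0 reads in 7 of 12 urea libraries and 4 of 12 control libraries, with at most 1.77 and 1.46 CPM, against at least 134 CPM after NaCl and 128 after raffinose. Its differences were -9.88 ± 0.32 and -9.98 ± 0.32, and -11.41 and -11.48 without passage 5, whose urea library was its highest. ENSCAFG00000032573 (chromosome 6, 7150741 to 7154682) had 0 reads in 6 urea and 9 control libraries and at most 3.17 CPM after urea, again at passage 5. Its differences were -9.37 ± 0.36 and -9.02 ± 0.36, and -11.37 and -10.97 without passage 5. Urea against control was not called for either gene (-0.44 and 1.75, edgeR adjusted p = 0.609 and 0.112), and single libraries decided these values. Without passage 5 they were -2.02 and -0.33 (edgeR adjusted p = 0.0172 and 0.818), and without passage 4 0.44 and 3.41 (edgeR adjusted p = 0.65 and 0.0103).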

How the data were processed

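RNA sequencing of 48 libraries of MDCK I cells gave raw counts of reads for each gene, deposited by the authors as 1 table. Per the file headers, reads were counted with featureCounts over exons, summed by gene, with strand ignored, against Ensembl 87 gene models (CanFam3.1). The submitters' processing notes list HISAT2 2.0.5 and featureCounts 1.5.1. The columns of passage 10 carry an added number that the labels do not explain. All sample columns were used.

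Counts were tested with edgeR 4.0.16 (R 4.3.3): filterByExpr, TMM factors, a group-only design fitted by glmQLFit to the 48 libraries, glmQLFTest and Benjamini-Hochberg adjustment, with a threshold of 0.05. SE is the absolute log2 fold change divided by the root of the F statistic. Tested on simulated data of the urea against control design (12560 genes), 26%, 78% and 98% of genes changed 1.25-, 1.5- and 2-fold were called. The simulation changed 50 genes per fold, all averaging 1 CPM or more, and held no passage effect. Far more genes were called in the data, so these rates need not hold there. A count of 0 allows up to 3 reads, for counting error only.

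Genes named were called, averaged 5 CPM or more and moved 1 way in all 12 same-passage pairs; the 2 highest and 2 lowest log2 fold changes are given, likewise among genes of at least 100 CPM in control, and for urea against both other solutes by the smaller of both differences. Prepared lists of genes by symbol were not used, since 0 identifiers have one. Comparison, groups and lists were chosen with earlier results of these data known. Passage labels pair the libraries: deviations from group means correlated at 0.32 on average over the 12 urea and control pairs (0.05 at passage 7, the others over 0.1), against -0.03 for 132 other pairs. Alternatives were RLE factors, library totals, other filters, DESeq2 1.42.0, passage as a block or linear term, 2 groups only, glmTreat and each passage left out.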

Additional observations from a re-analysis of the deposited data

How the results depend on the processing

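Counts of genes called for urea against control, NaCl and raffinose stayed within 1.5 times under RLE factors, library totals, both filters, DESeq2, a passage term, 2 groups only and each library or passage left out. Without a filter, 677 genes were at least 2-fold higher and 1081 lower, and with a mean of at least 5 CPM 186 and 315, since other numbers of low genes were tested. With only the urea and control groups these counts were 289 and 518, over 12005 tested genes. Against a minimum fold of 1.5 (glmTreat), urea against control kept 1165 genes, 455 higher and 710 lower, with 3497 against NaCl and 4152 against raffinose. With passage as a replicate block 7719 genes were called for urea against control, and 7553 with only these 2 groups; 6 short mitochondrial genes were lower in place of 5, and 3 with a mean of at least 5 CPM or under glmTreat. For the 10 named genes in each comparison run, 644 values kept direction and call, 8 came to be called and 3 reversed, all of them non-calls as reported. ENSCAFG00000015180 came to be called against NaCl with the block (-0.71), a linear passage term (-0.73) or no passage 17 (-0.72), and against raffinose with the block (-0.33). Against control, ENSCAFG00000006942 ranged from -2.02 to 0.44 and ENSCAFG00000032573 from -0.33 to 3.41 over the passages left out; without the urea library of passage 5 alone they were -1.92 and -0.23, and with DESeq2 the latter was 1.99 (adjusted p = 0.0167). Leaving out 1 passage or library gave 6216 to 6611 genes called, 3247 to 3459 higher, 2969 to 3152 lower, 332 to 351 at least 2-fold higher and 580 to 643 lower, 8923 to 9118 against NaCl, 9366 to 9553 against raffinose, and 0 to 0 for urea by passage. The 100 most abundant genes had a share of reads 0.56 points higher after urea in place of -0.0614 for the 20 most abundant (permutation p = 0.102; sign-flip p = 0.00635, 10 of 12 pairs higher); the cause was not tested. Runs of genes have no value where a filter removed a member. Depth limits genes under 1 CPM most, above all in the urea library of passage 8 with 3.92 M reads.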

Other observations

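By number of exons, 36.8% of 872 genes of 1 exon were called (159 higher, 162 lower), 46.5% of those with 2 to 4 and 56.7% of those with 21 or more. By genomic span, 528 of 2606 genes under 5 kb rose and 636 fell, 954 of 3022 genes of 20 to 50 kb rose and 726 fell, and 360 of 1499 genes over 100 kb rose and 436 fell. Among genes between 20 and 100 CPM alone, those of 20 to 50 kb had 478 higher and 297 lower, and those over 100 kb 151 higher and 176 lower. These counts were not tested, and span, exon number and read number go together.

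The spread between passages was close in both groups. The common biological coefficient of variation was 15.9% in control and 16.8% after urea, and the SD of log2 CPM had a median of 0.199 and 0.209 over 10098 genes, with the larger SD in urea for 56.7% of them.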
